A study of Mus musculus with 30 samples.

Results

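Arp4 knockdown was compared with control siRNA in 6 ATAC-seq libraries, out of 30 in the whole series. These were 3 libraries of mouse marrow-derived mesenchymal stem cells (MSCs) transfected with siRNA against Arp4 (siArp4) and 3 of the same cells given the control siRNA (siCTL), which the labels call a mock siRNA. All 6 came from male C57BL/6J cells. The study used 1 primary MSC line, made in the laboratory from the marrow of several mice, so that the replicates are not separate animals. The remaining libraries were siArp4 cells that also received CK666, an inhibitor of the Arp2/3 complex (3 libraries), and MSCs or NIH 3T3 fibroblasts without siRNA. Each library was made from 50000 cells by the Omni-ATAC protocol. The sources used here give neither the age of the mice nor the time from transfection to harvest, and the amount of Arp4 left in these cells cannot be read from ATAC-seq counts.

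Arp4 is the protein of the Actl6a gene and is also known as BAF53A. It is an actin-related protein of the nucleus that binds actin monomers and has no known enzymatic activity. Together with actin it is a subunit of chromatin remodeling complexes, among them BAF, INO80 and TIP60, which move, evict or modify nucleosomes. In ATAC-seq a transposase cuts DNA that is not wrapped in nucleosomes, so that the number of reads at a region increases with how open the region is. In a culture, fewer cells with an open region and less opening in each cell cannot be told apart. A closed region gives few reads, mostly from background cutting, and an open promoter or enhancer gives many.

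The deposited table holds read counts for 305931 consensus regions. In the siRNA libraries, the counts could be matched to each other but not to the region names of the table. Across all regions, the rank correlation of a siRNA library with a library without siRNA lay between -0.003 and 0.00176 in all 81 pairs, whereas 2 siCTL libraries correlated at 0.662 to 0.669 and 2 siArp4 libraries at 0.659 to 0.696. For this reason each region was followed by its line in the table, and no position, gene or cell type marker could be given. In 71185 regions that averaged 20 or more counts, the rank correlation was 0.879 to 0.884 within siCTL, 0.901 to 0.922 within siArp4, and 0.70 to 0.724 between the groups. These correlations run across regions, which are not independent replicates. Total counts were 9810487, 8904262 and 9745575 in the siCTL libraries and 10474823, 10294484 and 8225924 in the siArp4 libraries. The depths of the groups overlapped.

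With Arp4 knockdown the counts were spread less evenly over the regions. The Gini coefficient, which is 0 when all regions have the same count and near 1 when few regions hold all counts, was 0.686, 0.699 and 0.665 in the siCTL libraries and 0.760, 0.745 and 0.734 in the siArp4 libraries. Every siArp4 library lay above every siCTL library, and the means were 0.684 ± 0.0172 (SD, n = 3) and 0.746 ± 0.0131 (SD, n = 3). In an exact two-sided permutation test p was 0.1, which is the smallest value that 3 against 3 libraries allow, so that no comparison of single values between these groups could pass 0.05. After thinning all libraries to the same total of 8225924 counts, the Gini coefficients were 0.685 ± 0.0167 and 0.747 ± 0.014, and the difference of 0.0622 was close to the 0.0625 without thinning.

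The difference in evenness was seen in the highest 10% of regions but not in the highest 1%. When the regions of each library were ranked by that library alone, the highest 10% held 62.3%, 63.5% and 60.2% of the counts in siCTL and 70.1%, 68.5% and 66.8% in siArp4. The groups did not overlap (a mean difference of 6.45 percentage points, with SDs of 1.65 and 1.64, exact permutation p = 0.1, n = 3). The highest 1% held 25.7%, 26.3% and 24.9% in siCTL and 26.5%, 25.9% and 25.6% in siArp4, and here the groups overlapped (exact permutation p = 0.5, n = 3). This difference in the highest 1% was 0.361 percentage points, and -0.02 without siCTL replicate 3. At the other end, 1.07%, 1.64% and 0.728% of regions had no count in the siCTL libraries, against 2.78%, 2.33% and 3.69% in the siArp4 libraries. With the totals made equal, regions without a count were 1.33% ± 0.425 in siCTL and 3.40% ± 0.396 in siArp4 (SD, n = 3, exact permutation p = 0.1).

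**Figure D1:**
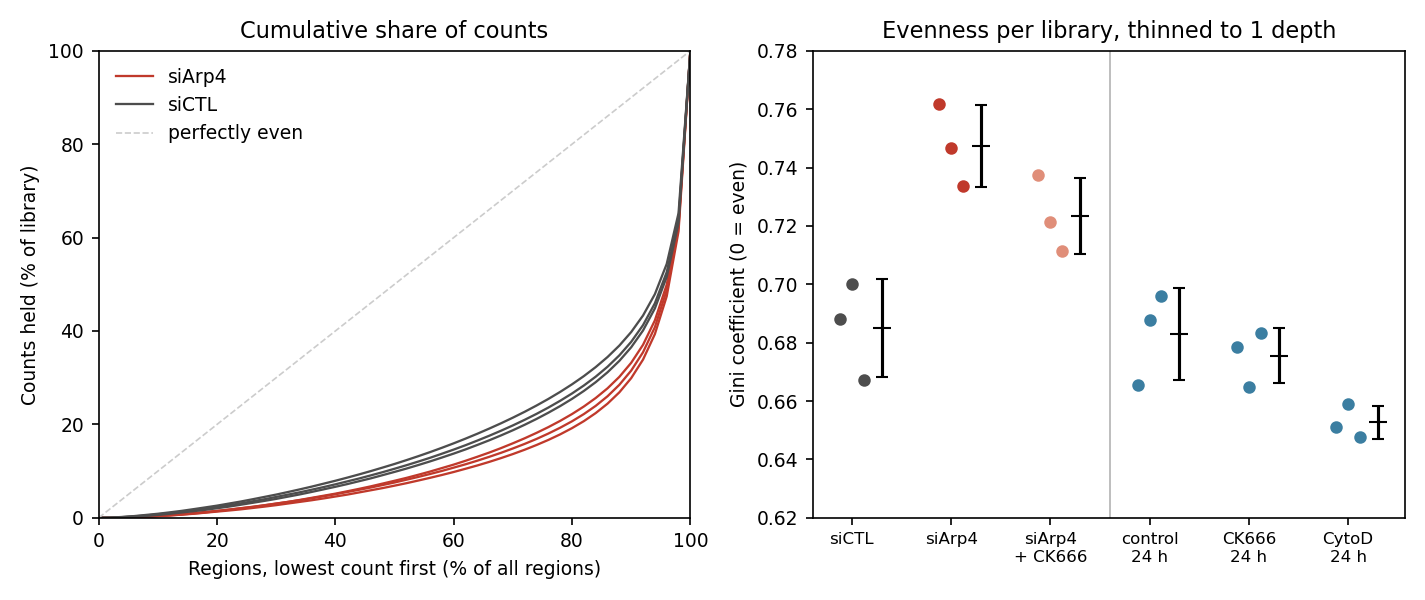
Left, cumulative share of counts (%) against the share of regions (%) ordered from the lowest count, 1 line per siCTL or siArp4 library, with a dashed line for perfect evenness. Right, Gini coefficient of each library after thinning to 8225924 counts, with bars for the mean and SD of 3 libraries per group; the 3 groups right of the grey line have no siRNA, and all siArp4 libraries lie above all siCTL libraries.

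The same pattern was seen in the levels at fixed ranks, in CPM, the count scaled to the library total. The region at the 25th percentile had 0.736 ± 0.0761 CPM in siCTL and 0.483 ± 0.005 CPM in siArp4 (SD, n = 3). These are whole counts of 7, 6 and 8 in siCTL and 5, 5 and 4 in siArp4, divided by the library total. At such low counts the SD is not read as a measure of how alike the replicates are. At the median the levels were 1.23 ± 0.105 and 0.934 ± 0.0651 CPM, and at the 75th percentile 2.21 ± 0.0675 and 1.91 ± 0.138 CPM. The order turned at the 90th percentile, with 5.20 ± 0.074 CPM in siCTL and 5.55 ± 0.0815 CPM in siArp4. At the 99th percentile they were 44.2 ± 1.54 and 49.5 ± 1.32 CPM. At the level passed by 0.1% of regions the order turned back, with 136.8 ± 3.12 CPM in siCTL and 130.9 ± 1.60 CPM in siArp4, and the groups did not overlap. Thus levels with Arp4 knockdown were lower at low and middle ranks and higher at the 90th and 99th percentiles. The lower level near the top was read at 1 rank only. The largest raw count of each library was 4430, 4080 and 4483 in siCTL and 5275, 5229 and 3578 in siArp4, and the groups overlapped.

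Next, each region was compared between the groups. Of all regions, 205173 passed edgeR's default filter on low counts and were tested, with counts normalized by the TMM method, which scales libraries so that most regions do not change. Calls needed a log2 fold change past 1, up or down, together with an adjusted p under 0.01. The quasi-likelihood test of edgeR, adjusted by Benjamini-Hochberg, gave 13594 called regions, which is 6.63% of the tested regions. Of these, 10434 gained accessibility with siArp4 (5.09%) and 3160 lost it (1.54%), so that 76.8% of the called regions were gains. Gains and losses had similar sizes, with a median log2 fold change of 1.51 and -1.55. A log2 fold change of 2 was passed by 2133 gains (20.4%) and 650 losses (20.6%), and 236 gains and 74 losses passed 3. Without one siCTL library, the number of losses was 1951 (without replicate 1) or 2014 (without replicate 2), in fits where more regions passed the filter.

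The called regions did not stand for the typical region. Across all tested regions the median log2 fold change was -0.10, and 55.6% of the values were below 0. The sign of this median depended on the scaling, and it was 0.17 when libraries were scaled to equal counts in the regions with the lowest 30% of levels. At an adjusted p under 0.01 with no limit on the fold change, 16391 regions were higher and 4625 lower. All siArp4 libraries lay above all siCTL libraries in 14.9% of the tested regions, and below in 13.8%. Among the called regions, the groups did not overlap in 99.3% of the gains and 99.1% of the losses, which largely follows from the call on the same values.

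Gains and losses started from different levels. Values are given as normalized counts, which are TMM-normalized counts at the mean library size. Called gains had a median of 29.7 normalized counts in siCTL, with quartiles of 16.5 and 59.8, and a median of 89.7 in siArp4. Called losses started higher, at a median of 49.9 (32.5 to 81.5), and ended at 17.7. The siCTL level is part of the call, which favours low starts for gains and high starts for losses. In siArp4 the order was reversed, so that neither set is read as the more open. The median tested region had 14.8 normalized counts in siCTL and 13.4 in siArp4. At such a level a loss beyond the fold limit leaves very few counts. How far the depth limits the detection of losses at low levels was not tested.

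**Figure D2:**
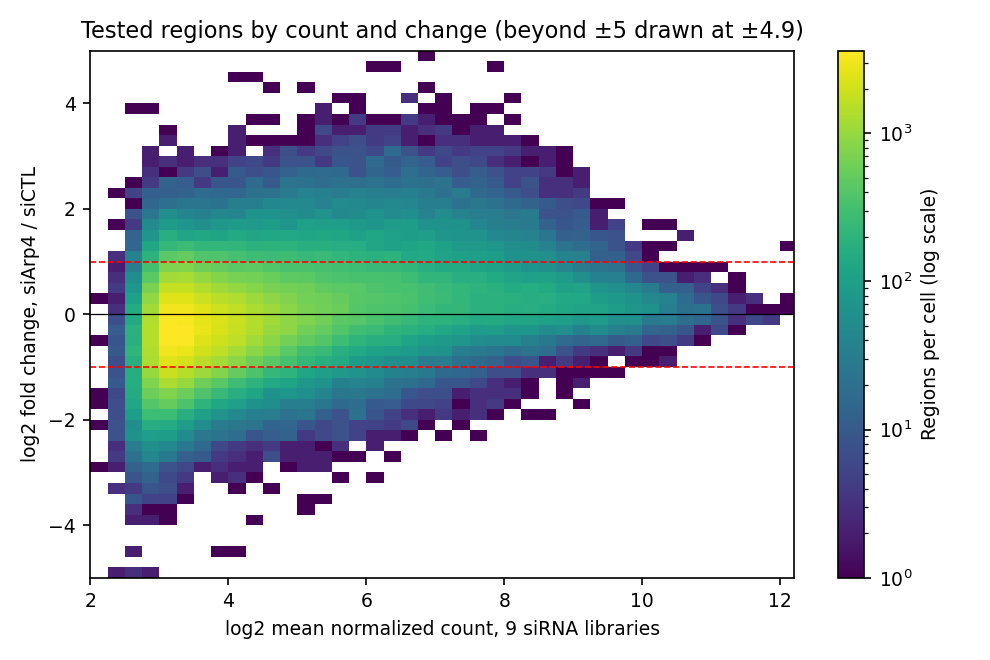
Log2 fold change of siArp4 over siCTL (vertical axis) against the log2 mean normalized count of the 9 siRNA libraries (horizontal axis) for the 205173 tested regions, coloured by the number of regions on a log scale, with dashed lines at the fold limits. Most regions lie at low counts and around or below 0, in the middle of the range the spread reaches further above 0 than below, and at the highest counts few regions pass a limit.

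Tested regions were then ranked by their mean siCTL level and divided into 10 equal bins, from bin 1 (lowest) to bin 10. The lowest 3 bins were termed closed (61551 regions, up to 11.1 normalized counts), the next 6 intermediate (123104 regions) and bin 10 most open (20518 regions, from 71.1 normalized counts). The share of gains was 3.17% in bin 1 and 1.74% in bin 3, and increased from there up to bin 9. Only 0.798% of closed regions would have passed the filter in the siCTL libraries alone. The filter thus let in closed regions with counts in siArp4 libraries, and their shares of gains and losses are not read as an effect of openness. Gains were 2.23% of closed, 5.67% of intermediate and 10.2% of most open regions, and losses were 0.0114%, 1.78% and 4.67%, beside the 5.09% and 1.54% of all tested regions. In bin 9, from 34.4 to 71.1 normalized counts, 2502 of 20517 regions were gains and 1322 (6.44%) losses. In the highest 1% of regions, above 519 normalized counts, the shares were 0.585% and 0.731%, or 12 gains and 15 losses among 2052 regions. The replicates were most alike in these regions, with a biological coefficient of variation of 0.0723 in siCTL and 0.0536 in siArp4, compared with 0.403 and 0.459 in closed regions.

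The most open regions held 55.7%, 56.9% and 53.7% of all counts in the siCTL libraries and 59.7%, 58.3% and 56.9% in the siArp4 libraries. The lowest siArp4 library was just above the highest siCTL library (means 55.4% ± 1.59 and 58.3% ± 1.38, exact permutation p = 0.1, n = 3). In TMM-normalized counts this was 246.1 ± 15.0 per region in siCTL and 291.6 ± 12.7 in siArp4, a log2 ratio of 0.24. Taken one by one, the most open regions had a median log2 fold change of 0.19, and 36.3% of them were below 0.

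Intermediate regions showed the opposite share. They held 31.1%, 30.8% and 31.9% of the counts in siCTL and 29.8%, 30.3% and 30.5% in siArp4 (means 31.3% ± 0.551 and 30.2% ± 0.389, exact permutation p = 0.1, n = 3), and the groups did not overlap. Their median log2 fold change was -0.25 and 64.0% of them were below 0, although they held 66.9% of all gains and 69.4% of all losses. Summed over the class, the normalized counts gave a log2 ratio of 0.12, opposite in sign to the median of the single regions. This ratio was 0.08 without siCTL replicate 3. The ranking uses the same siCTL values as the ratio, and 71.2% of intermediate regions would have passed the filter in the siCTL libraries alone, so that the median and the share below 0 are descriptions of this ranking. Ranked on 1 siCTL library and compared with the other 2, tested intermediate regions had log2 ratios of 0.18, 0.19 and 0.16.

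The highest 1% of tested regions held 20.6%, 21.1% and 19.9% of the counts in siCTL and 19.7%, 19.2% and 19.2% in siArp4. The groups did not overlap, and the share was lower in siArp4 (means 20.5% ± 0.557 and 19.3% ± 0.266, exact permutation p = 0.1, n = 3). The ranking on the same siCTL values favours a lower share in siArp4. Over all regions ranked on the siCTL mean, the groups overlapped (means 25.6% and 24.5%, exact permutation p = 0.2, n = 3). For the highest 1% of tested regions, the log2 ratio in TMM-normalized counts was 0.09. This was the same size as the spread of replicates, which was 0.0864 on this scale. This value depended on single libraries, and was 0.15 without siCTL replicate 1, 0.18 without siCTL replicate 2, 0.14 without siArp4 replicate 2 and 0.17 without siArp4 replicate 3.

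For closed regions, the filter and the ranking on the siCTL mean set much of the value. In bins 1 and 2 no region would have passed the filter in the siCTL libraries alone, and in the closed class 0.798% would have, so that these regions were tested because they had counts in libraries with siArp4. Ranked in this way, closed regions had a log2 ratio of 0.23 (0.36 without siCTL replicate 1 or replicate 3), and bin 1 had 0.63. Regions were therefore also ranked without a filter, over the whole table, on 1 siCTL library, and siArp4 was compared with the other 2 siCTL libraries. The closed class then had log2 ratios of -0.18, -0.20 and -0.12 with siCTL library 1, 2 and 3 as the ranking library. All 3 siArp4 libraries were below the mean of the other siCTL libraries in each ranking, with values from -0.30 to -0.01. The other siCTL libraries differed from each other by 0.11, 0.07 and 0.04, so that the decrease was larger than this gap in the mean but not in every siArp4 library. These ratios were computed with TMM scaling only. Other scalings moved the median log2 fold change of tested regions by -0.20 to 0.26. Only the move of 0.26, with the lowest 30% of regions made equal, was upward and larger in size than these ratios. Trended offsets, described below, moved closed regions further than the median, from 0.23 to 0.46 when ranked on the siCTL mean. The held-out ratios were not recomputed under other scalings, so that their sign was read with TMM only.

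On this ranking, again with TMM scaling, the change increased from closed to open regions. Bin 1 had log2 ratios of -0.19, -0.22 and -0.12, bin 7 lay between -0.019 and -0.011, and bins 9 and 10 were at 0.22 to 0.27 and 0.22 to 0.30. For the most open class, the siArp4 libraries lay between 0.15 and 0.37, and the gap between the other siCTL libraries was 0.17, 0.11 and 0.06. The intermediate class had 0.06 in all 3 rankings, with a gap between siCTL libraries of at most 0.01. For the highest 1% the values were 0.12, 0.16 and 0.07, against gaps of 0.17, 0.11 and 0.07, so that the value was above the gap between controls with library 2, about equal to it with library 3 and below it with library 1.

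**Figure D3:**
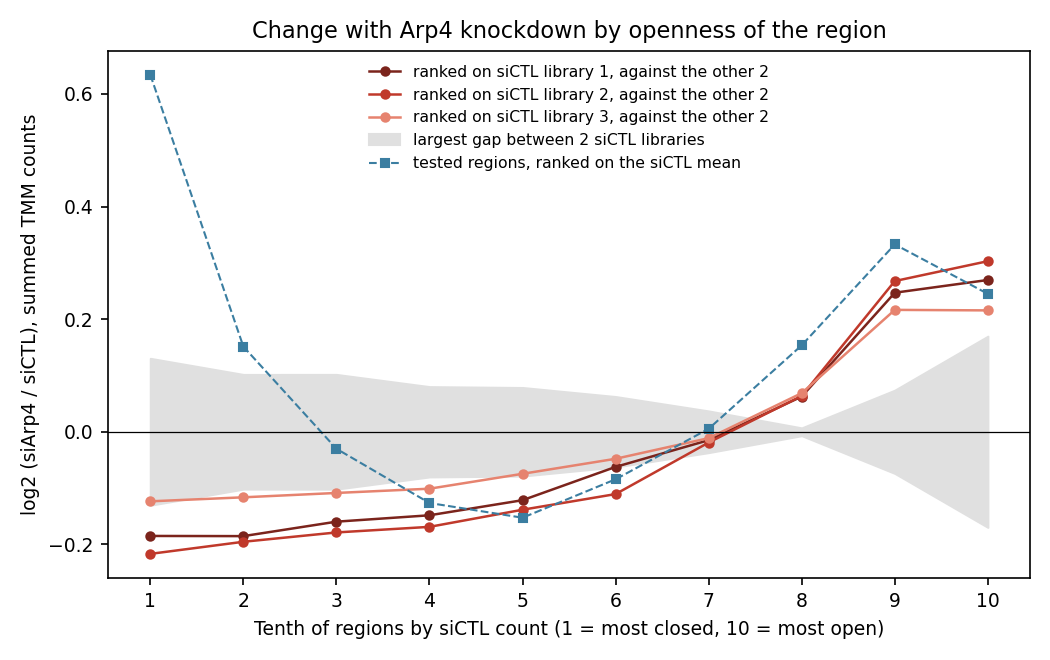
Log2 ratio of siArp4 to siCTL in summed TMM-normalized counts for each of 10 equal bins of regions from most closed (1) to most open (10). Red lines rank all regions on 1 siCTL library and compare with the other 2, grey shows the largest gap between 2 siCTL libraries, and the blue dashed line ranks tested regions on the siCTL mean; the red lines go from -0.22 to -0.12 in bin 1 to 0.22 to 0.30 in bin 10, and the blue line lies above all of them in bins 1 to 3 and 7 to 9 and below all of them in bin 5.

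The ratio of the counts in the most open to those in the closed regions of the same library does not depend on scaling by a single factor per library. With siCTL library 1 as the ranking library, its log2 value was 2.79 and 3.07 in the other siCTL libraries and 3.20 to 3.54 in the siArp4 libraries. With library 2 it was 2.79 and 2.96 against 3.20 to 3.54, and with library 3 it was 2.96 and 3.06 against 3.17 to 3.50. The groups did not overlap in any of the 3 rankings. On average the log2 ratio was higher by 0.43 in siArp4, or 1.35-fold. When the regions were ranked on the mean of all 3 siCTL libraries, which then are not held out, the difference was 0.06. With a held-out ranking and a single factor per library, the contrast between open and closed chromatin was larger with Arp4 knockdown. It was not computed with trended offsets, described below, which change open and closed regions by different amounts. In tested regions ranked on the siCTL mean, these gave log2 ratios of 0.46 in closed and -0.12 in most open regions, against 0.23 and 0.24 with TMM.

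How many regions were called as gains or losses depended on the scaling between libraries. TMM factors were 1.08, 1.05 and 1.13 in the siCTL libraries and 0.917, 0.943 and 0.965 in the siArp4 libraries, so that TMM raised siArp4 counts relative to siCTL counts. Scaled by total counts only, 7246 gains and 5649 losses were called by the same test (56.2% gains), and the median log2 fold change moved by -0.20 to -0.30. For 2 further scalings, regions were ranked on the mean CPM of the siCTL and siArp4 libraries together, so that the sets made equal are not the classes above. With library sizes that made the counts of the highest 1% in this ranking equal, 7837 gains and 4842 losses were called (61.8% gains, a shift of -0.16). With the counts of its lowest 30% made equal, there were 16570 gains and 1569 losses (91.4% gains), and the median moved by 0.26 and turned to 0.17. DESeq2's method of size factors as given in edgeR (RLE) called 10984 and 2947, and the TMMwsp and upper-quartile methods 11513 and 2749, and 9250 and 3812. Gains outnumbered losses under all of these scalings, although by very different margins. What was scaled was reads inside the regions, since reads elsewhere in the genome are not part of the table, and an equal shift of all regions would be invisible under any scaling.

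In the most open regions even the more frequent direction depended on the scaling. TMM gave 2084 gains and 959 losses there, or 68.5% gains. Total counts gave 1324 gains and 1435 losses, or 48.0% gains. When a smooth trend of each library's counts with the mean count was removed (trended offsets), the most open regions had 809 gains and 1967 losses (29.1% gains), while the closed class had 1663 gains and 3 losses. The log2 ratio of summed counts in this class was 0.04 with total counts and -0.12 with trended offsets, and that of the intermediate class was -0.08 with total counts. Over all regions the trended offsets gave 7470 gains and 4219 losses. Closed regions had more gains than losses under each scaling, which the filter described above favours.

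A large set of regions was called under every scaling. It held 6248 gains (59.9% of the gains with TMM, 3.05% of tested regions) and 1552 losses (49.1% of the losses, 0.756% of tested regions), and 80.1% of it were gains. This share depends on which scalings were run. The set can hold no more losses than the 1569 with the lowest 30% made equal, and no more gains than the 7246 with total counts. The gains called under every scaling had a median log2 fold change of 1.77, with 967 in closed, 4472 in intermediate and 809 in most open regions. The losses called under every scaling had a median of -1.76 and started from 55.8 normalized counts, with 3, 1003 and 546 in the same classes.

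**Figure D4:**
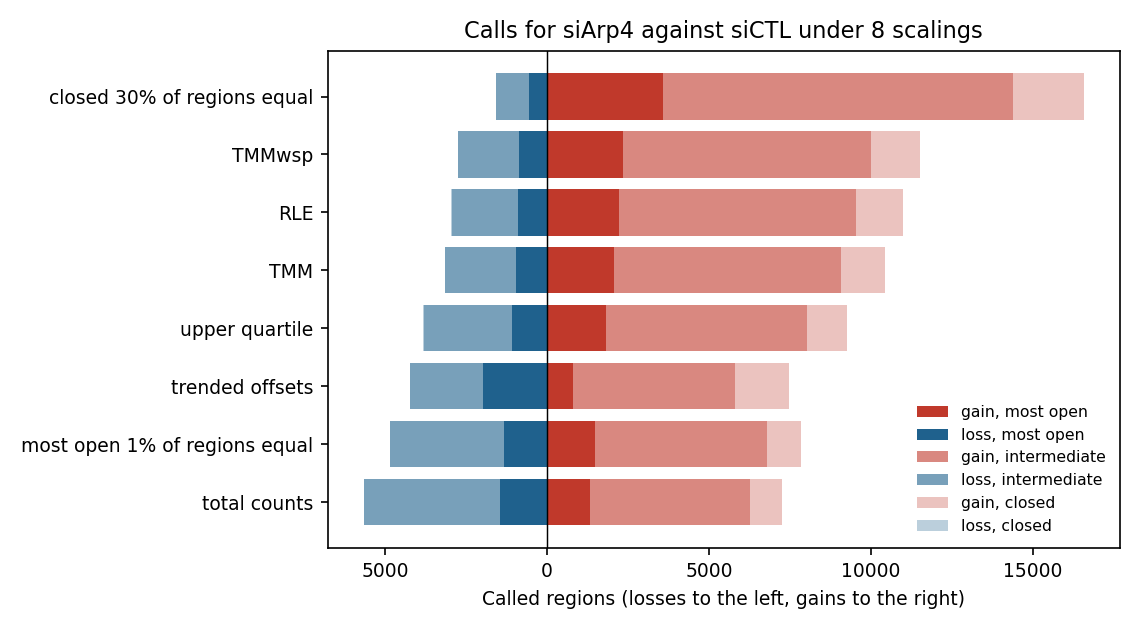
Number of called gains (red, to the right) and losses (blue, to the left) for siArp4 against siCTL under 8 scalings, with shades for most open, intermediate and closed regions; the sets made equal rank on the mean of both groups. Gains are between 7246 and 16570 and losses between 1569 and 5649, and in the most open class (darkest) losses exceed gains with total counts and with trended offsets.

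Single regions show how far accessibility moved. In the closed class, the region with the largest called gain had 3.73, 5.26 and 4.51 normalized counts in siCTL and 238, 198.9 and 213 in siArp4. It went from 4.50 ± 0.766 to 216.6 ± 19.8 (SD, n = 3), which is 5.56 on the log2 scale with a standard error of 0.258 (Benjamini-Hochberg adjusted p = 2.79e-42, edgeR quasi-likelihood). The region thus went from bin 1 of siCTL levels to a level of the most open class. In the intermediate class, the largest gain was from 15.9, 15.8 and 14.4 to 411, 389.8 and 367.2 normalized counts, a log2 fold change of 4.66. In the most open class it was from 69.9, 83.1 and 107.3 to 762, 696.1 and 652.5, a log2 fold change of 3.01. All 3 were chosen for the largest change and for no overlap between the groups, so that their separation follows from the choice. The region of the closed class was also tested only because of its counts in libraries with siArp4.

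Among losses from at least 20 normalized counts, the largest left regions almost without counts. In the intermediate class, a region with 38.2, 44.2 and 38.8 normalized counts in siCTL had 0, 3.98 and 1.22 in siArp4, which is -4.42 on the log2 scale with a standard error of 0.582 (edgeR, Benjamini-Hochberg adjusted p = 1.84e-10). In the most open class, a region with 89.5, 86.3 and 100.9 had 3.00, 10.9 and 7.34, or -3.68 on the log2 scale (edgeR, Benjamini-Hochberg adjusted p = 2.64e-17). The closed class ends at 11.1 normalized counts in siCTL, so that by definition no loss in it could have a mean of 20. The region with the highest siCTL count had 4131, 4294 and 3996 normalized counts in siCTL and 4461, 4467 and 4305 in siArp4. All its siArp4 values were above its siCTL values, but the log2 fold change of 0.09 did not pass the test (adjusted p = 0.392, edgeR with Benjamini-Hochberg adjustment), and its sign was negative when scaled by total counts.

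**Figure D5:**
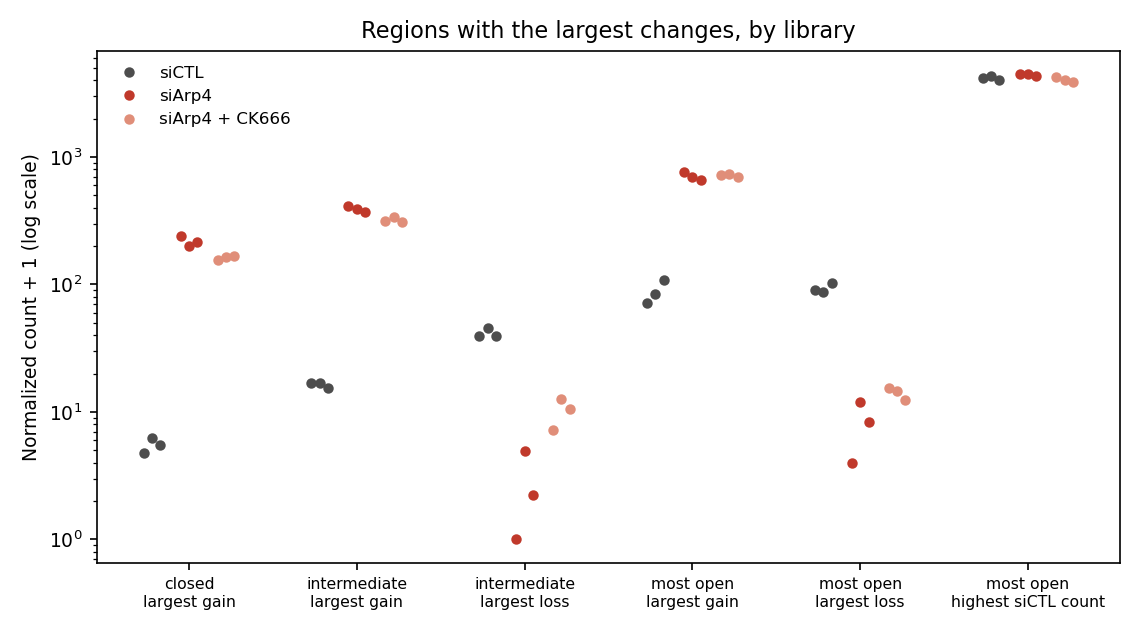
Normalized count plus 1 (log scale) of 6 regions in each siCTL, siArp4 and siArp4 + CK666 library, namely the largest called gain and loss of each class where there was one and the region with the highest siCTL count. The 3 gains and 2 losses were chosen to separate siCTL from siArp4, and the region with the highest count is between 3896 and 4467 in all libraries.

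Libraries with siArp4 and CK666 are given for the same regions, and share the siCTL libraries as their control. The region with the largest gain in the closed class had 161.7 ± 5.51 normalized counts with siArp4 and CK666 (SD, n = 3), and those of the intermediate and most open class 320.1 ± 14.7 and 713.1 ± 18.9. The regions with the largest loss in the intermediate and most open class had 9.14 ± 2.77 and 13.2 ± 1.53, below siCTL and above siArp4 alone in the mean. Over all called gains, the median log2 ratio to siCTL, with 0.5 CPM added, was 1.34 for siArp4 and 1.15 for siArp4 with CK666. For called losses it was -1.31 and -1.05. These regions were chosen for their change with siArp4, so that no order of the treatments is read from them. The Gini coefficient was 0.736, 0.719 and 0.709 with siArp4 and CK666, and all 3 were above all siCTL libraries. Within siRNA libraries, the level of this measure was thus higher in all 6 with Arp4 knockdown than in the 3 without.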

How the data were processed

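PEPATAC, bowtie2 and MACS2 were used by the authors, who took the union of the replicates' peaks in each condition as consensus regions, and deposited counts of reads per region and library without normalization. The submitters' processing notes name the build mm10, while tool versions, read filters and any shift for transposase insertion, all already part of the counts, are not given there or in the methods. The counts of the siRNA columns do not follow the region names, so no positions were used. The 4 h table was not used.

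Groups came from GEO's labels. Analysis used edgeR 4.0.16, limma 3.58.1 (loess for trended offsets) and DESeq2 1.42.0 under R 4.3.3, with plots from Python 3.11.15 and matplotlib 3.10.9. The 9 siRNA libraries were fitted together after edgeR's default filter (about 10 counts in as many libraries as the smallest group) and TMM normalization, and siArp4 was contrasted with siCTL by the quasi-likelihood test, with Benjamini-Hochberg adjustment over all tested regions. The limits are those of the paper's methods, which used DESeq2, here an alternative. The standard error is the log2 fold change divided by the root of the F statistic. Single values were compared by exact two-sided permutation tests. Scripts were tested on simulated data. Same-numbered siCTL and siArp4 libraries did not deviate together (r from -0.00072 to 0.0209), so numbers do not pair them. As replicates are not stated to be separate cultures, p-values measure the spread between these libraries, which may be technical.

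Regions printed singly were, per class, the called gain and loss with the largest change among those with at least 20 normalized counts in the higher group and no overlap between groups, and the region with the highest siCTL mean. Members, classes and tests were chosen with earlier results of these data known. Ranking over all regions on 1 siCTL library, and the ratio of open to closed regions, were added after seeing the data.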

Additional observations from a re-analysis of the deposited data

How the results depend on the processing

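A region near 10 counts leaves little room for a loss, and how far depth limits the calls in closed regions was not tested. Called gains and losses numbered 16391 and 4625 with no fold limit, 2133 and 650 beyond a log2 fold change of 2, and 3083 and 284 when tested against a log2 fold change of 1 (glmTreat). With the lowest 30% of regions by the mean of both groups made equal they were 16570 and 1569. Losses alone moved by over 1.5 times with total counts (5649), with the most open 1% made equal (4842), with DESeq2 (2060, beside 11057 gains) and with a mean of at least 20 counts (4819, beside 7119 gains). DESeq2 was run without edgeR's filter, and edgeR with no filter called 10942 gains and 2264 losses. With 1 library left out at a time, there were 9305 to 11239 gains and 1951 to 2385 losses. With the replicate block, 10285 gains and 3035 losses were called, and as the numbers do not pair the libraries this is given once.

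Log2 ratios of the classes, which rank on siCTL, moved with the scaling. The sets made equal below rank on the mean of siCTL and siArp4, so the classes need not come to 0. With total counts they were 0.0224 in closed, -0.0804 in intermediate and 0.0411 in most open regions and -0.12 in the highest 1%. With the most open 1% made equal they were 0.0682, -0.0341, 0.0878 and -0.0703, and with the closed 30% made equal 0.49, 0.39, 0.51 and 0.35. With trended offsets they were 0.46, 0.0673, -0.12 and -0.26. The intermediate value was 0.15 with RLE, 0.0568 with upper-quartile factors and 0.18 with TMMwsp.

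With TMM scaling, they also moved with the libraries that set the ranking. Among tested regions ranked on siCTL library 1, 2 or 3, closed regions had -0.0594, -0.0716 and -0.00611, and intermediate regions 0.18, 0.19 and 0.16. Ranked on the mean of both groups, closed regions had -0.30 and intermediate 0.0665. Ranked on siArp4 + CK666, the closed, intermediate and most open classes and the highest 1% had -0.34, 0.0338, 0.36 and 0.24. Over all regions, intermediate regions had -0.0107 when ranked on the siCTL mean and 0.0631, 0.0603 and 0.0649 when ranked on 1 siCTL library, and closed regions had -0.18, -0.20 and -0.12 in those 3. Ranked over all regions on siArp4 + CK666, the 4 values were -0.33, -0.0937, 0.35 and 0.27. Left-out libraries gave 0.18 to 0.36 (closed), 0.0824 to 0.115 (intermediate), 0.23 to 0.34 (most open) and 0.0836 to 0.18 (highest 1%). The ratio of open to closed regions differed by 0.0621 when ranked on the siCTL mean and by 0.69 when ranked on siArp4 + CK666, and by 0.35 to 0.52 with each siArp4 library left out.

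The Gini coefficient and the shares of the highest 5% and 10% kept their direction under every alternative run, with ranges of 0.0533 to 0.0703, 4.07 to 5.56 and 5.56 to 7.28 over left-out libraries. Ranked on the siCTL mean, the difference was 2.08 points for the highest 5%, where the groups overlapped (exact permutation p = 0.2), and 3.78 points for the highest 10%, and over tested regions it was 2.75 points for the highest 5%. The share of the highest 1% did not, and its difference was -0.64 points over tested regions, -1.05 when ranked on the siCTL mean, and between -0.0159 and 0.69 with a library left out. Of 90 values recomputed for the 6 single regions, 87 kept direction and side of the threshold, and the other 3 were those of the region with the highest siCTL count, at -0.11 with total counts, -0.0662 with the most open 1% made equal and -0.16 with trended offsets. The cause of each move was not tested.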

Other observations

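Few regions were without any count in a whole group. In all 3 siArp4 libraries 73 of 305931 regions (0.0239%) were at 0, against 6 in all 3 siCTL libraries and 24 in all 3 libraries with siArp4 and CK666. No region was at 0 in all 9. Of the 73 regions, 10 had at least 30 counts over the siCTL libraries (30 to 37), and the same 10 had 9 to 34 counts over the libraries with siArp4 and CK666, with a median of 20. No region had the opposite pattern, with no count in siCTL and at least 30 counts over the siArp4 libraries. Of the called losses, 5 were at 0 in all siArp4 libraries.

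Libraries without siRNA in the same table can be compared in evenness, which needs no region names. Thinned to the same total, the 9 libraries of MSCs with no treatment, CK666 or CytoD had Gini coefficients from 0.648 to 0.696, and siCTL from 0.667 to 0.70, so that siCTL overlapped with them and siArp4, from 0.734 to 0.762, did not. The highest 1% of regions held 16.9% to 17.9% of the counts in these libraries and 24.7% to 26.5% in the 9 siRNA libraries. Transfection, batch and the regions behind the lines cannot be told apart in this difference.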
